A study of Danio rerio with 9 samples.

Results

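Zebrafish embryos exposed to 32 µM perfluorobutane sulfonate (PFBS) were compared with embryos held in the solvent alone. All 26901 rows of the authors' deposited table for this pair of groups were taken, out of 85344 rows in the 3 tables of the series. Both groups were whole embryos of the AB strain collected at 96 h after fertilization, and both had their chorions removed by hand at 24 h and their solutions renewed daily. The control group received 0.01% DMSO, and the labels do not state the DMSO content of the PFBS groups. Each group had 3 samples of 15 pooled embryos, so that a group stands for whole animals in pools and not for single larvae or organs. Per the labels the dishes were kept at 37 °C, which is unusually high for this species and may be an entry error, and no hour of the light cycle is given. Polyadenylated RNA was sequenced in stranded libraries.

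PFBS is a short-chain perfluorinated surfactant that persists in water and is used in place of longer-chain relatives. At this age a zebrafish has a beating heart, a pigmented and seeing eye, a swimming musculature and a liver, gut and pancreas that are taking over from the yolk. The skin carries melanophores, xanthophores and iridophores, and tissues throughout the body hold circadian clocks that respond directly to light. A whole-animal library mixes all of these, and fewer cells of a type cannot be told apart from less RNA per cell.

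The authors' deposited table holds 1 value per group, given as the log2 of FPKM (a count of fragments divided by the length of the transcript and the size of the library). No value of a single sample is in the table, so no level or ratio below has an SD, an overlap of groups could not be seen, and read depths are unknown. The authors' q-values are the only measure of error here, and which test made them is not stated, so that they reflect the spread between the 3 samples a group is assumed. Ratios are log2 of 32 µM over control, and "rose" and "fell" are used only of rows that passed the test, with a q-value below 0.05 per the authors' deposited table. Whether the 3 samples of a group came from separate cultures is not stated per sample, so the spread behind these q-values may be partly technical.

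Called changes were many, small and in both directions. The authors' deposited table had 258 of 26901 rows higher at 32 µM, a background of 0.959%, and 234 lower, 0.870%. Counted as gene names with 1 row each, 117 of 11685 names rose (1.00%) and 153 fell (1.31%). These 2 shares are the background for every list below. They were taken over all levels, and the share called was larger among rows at high levels. An unadjusted p under 0.05 was reached by 1374 of the 11685 names in either direction, the background for counts at that p. Counts of positive or negative ratios have no such share beside them, and the median ratio over all gene names was -0.02. Called rows had a median log2 ratio of 0.38 if higher and of -0.30 if lower, and 29 called rows changed at least 2-fold. The smallest called change was 0.16 in size. As many as 258 called rows shared the smallest q-value of the table, 0.00521, and gave no order among the genes that carried it. Where no q-value is printed beside a gene called below, it lay between 0.00521 and 0.0492. A called gene named below that stands in no list was chosen after its values were seen, unless it is among the 20 largest changes in its direction or the 10 highest levels.

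**Figure D1:**
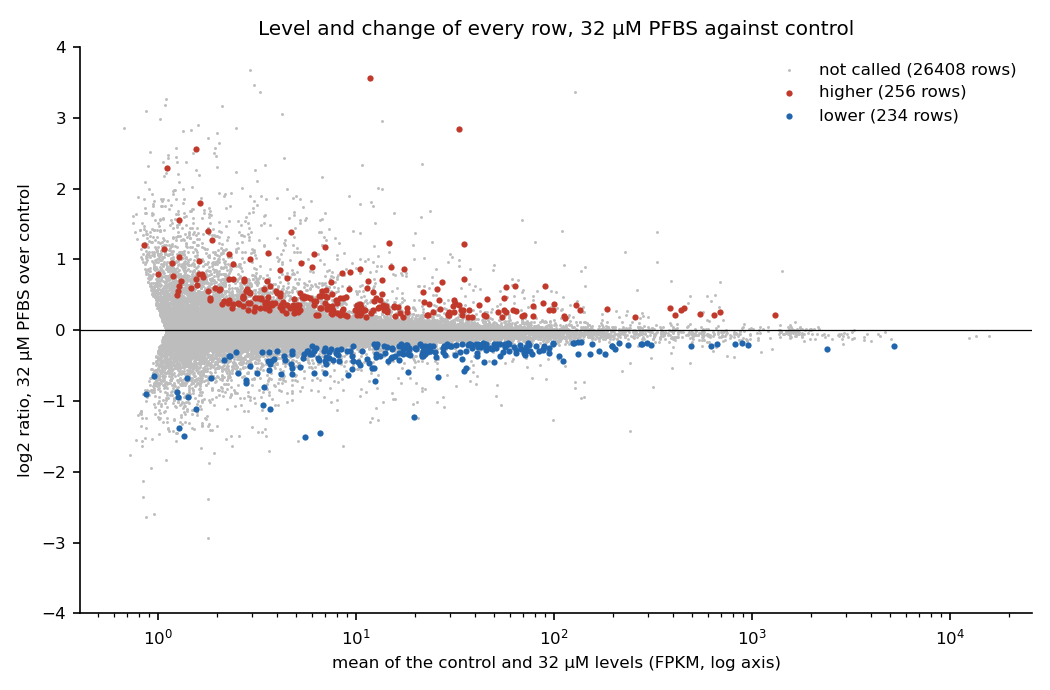
Each point is 1 row of the authors' deposited table, with the mean of its control and 32 µM levels in FPKM on a log axis and its log2 ratio on the vertical axis. Rows called higher are red, rows called lower blue and rows not called grey. Called rows at low levels are mostly above 0 and those from 20 to 300 FPKM mostly below it, while those at higher levels lie on both sides. The 3 rows listed at 0 in the control are not drawn, and 3 rows not called lie beyond the axis limit of 4. Among the rows listed at 0 are unnamed rows called higher (q = 0.00521 each). They lie on chromosome 16, at 2.48 FPKM in the 32 µM group, and on chromosome 25, at 2.22 FPKM.

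The direction and the share of the calls moved with the level. Of rows at 1 to 2 FPKM 0.55% were called in either direction. The share was 5.93% at 50 to 100 FPKM and 5.01% at 300 FPKM and more, so lists of highly expressed genes stand beside a larger background. Among rows of 2 to 5 FPKM the authors' deposited table called 68 higher and 29 lower, while among rows of 50 to 100 FPKM it called 18 higher and 33 lower. Calls were even at 10 to 20 FPKM, with 41 in each direction, and nearly so at 300 FPKM and more, with 8 higher and 9 lower. The median log2 ratio of all rows was 0.00 at 5 to 10 FPKM and -0.05 at 300 FPKM and more. Every row reached 1 FPKM in its higher group, so the medians of the lowest levels are set in part by that limit and are not given. The part of this drift in the counts of single organs was not tested.

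Genes of pigment cells were lower, those of melanophores most often. The authors' deposited table called 7 of 15 measured melanophore genes lower and 0 higher, with no member at an unadjusted p under 0.05 in the higher direction. The gene pmelb, which encodes a protein of the fibrils on which melanin is laid down, went from 5.78 FPKM in the control to 3.76 FPKM at 32 µM (log2 ratio -0.62, q = 0.00521 in the authors' deposited table; chromosome 23, 35724089 to 35741880, danRer7). Its paralogue pmela, which is expressed at a higher level, went from 53.1 to 44.3 FPKM (-0.26 in the same deposited table). Reads that both paralogues share could not be assigned here. The enzymes that make melanin fell as well in the authors' deposited table. Dopachrome tautomerase, dct, went from 28.8 to 22.2 FPKM (-0.38), and tyrp1b, a tyrosinase-related protein, from 80.4 to 69.6 FPKM (-0.21). The gene tyrp1b is also listed for the pigment epithelium of the eye, which whole embryos do not separate from melanophores. The melanosome transporter gene slc45a2 fell from 16.7 to 13.8 FPKM (-0.27), the tetraspanin gene tspan36 from 27.9 to 22.5 FPKM (-0.31) and the organic anion transporter gene slc22a7a from 19 to 14.1 FPKM (-0.42), as the deposited table gives them. Not every melanophore gene had such a ratio. Tyrosinase (tyr) had -0.13 with q = 0.528 and the melanosome receptor gene gpr143 -0.15 with q = 0.680, while the lineage regulator mitfa had 0.07 (q = 0.952) and the receptor gene kita 0.06 (q = 0.855) in the authors' deposited table.

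The reflecting and yellow pigment cells had fewer called genes. The purine nucleoside phosphorylase gene pnp4a, a marker of iridophores, fell from 32 to 27.5 FPKM (-0.22), and paics, an enzyme of new purine synthesis listed for iridophores and xanthophores, fell from 204 to 161 FPKM (-0.34, q = 0.00521) in the authors' deposited table. The paics row spans the same locus as the row of the purine synthesis gene ppat, which had -0.04 (q = 0.968). Another enzyme upstream of purines, the phosphoribosyl pyrophosphate synthetase gene prps1a, fell from 45.6 to 36.5 FPKM (-0.32 in the authors' deposited table). The pteridine synthesis genes gch2 (-0.14, q = 0.522) and pts (-0.19, q = 0.537) of xanthophores did not pass the test of the authors' deposited table. Over the 3 pigment cell lists together, the authors' deposited table called 9 of 43 measured genes lower, called 0 higher and gave 35 a negative ratio. Their summed level went from 919 to 803 FPKM, of which paics gave 204 and 161 FPKM. Their median ratio was -0.11, beside -0.02 over all gene names.

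Among circadian clock genes, most of the called repressors and outputs fell and the called activators rose. Rev-erb alpha, the repressor encoded by nr1d1, had the largest decrease of any named gene, from 8.22 to 2.87 FPKM (-1.51), and its relative nr1d2b went from 42.2 to 29.4 FPKM (-0.53) in the authors' deposited table. The period gene per1b fell from 4.38 to 2.51 FPKM (-0.80), the cryptochrome gene cry3 by 0.34 and the repressor gene bhlhe40 from 55.3 to 48.2 FPKM (-0.20), again per the deposited table. The list also holds cry5, which fell by 0.48 and is named like a cryptochrome but encodes a photolyase. Among the PAR bZIP factors, output genes of the clock that bind D-box elements, dbpb went from 1.88 to 0.973 FPKM (-0.95, or -0.55 with a pseudocount of 1), dbpa from 8.06 to 5.98 FPKM (-0.43) and tefa from 31.8 to 20.3 FPKM (-0.66; chromosome 12, 20241000 to 20249475). A further PAR bZIP gene moved the other way, with hlfb rising from 5.98 to 8.28 FPKM (0.47 in the authors' deposited table). The D-box repressors nfil3-5 and nfil3-2 rose too, by 0.36 (28.8 to 37.3 FPKM) and 0.51 (11.2 to 15.9 FPKM).

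Of 9 measured activators of the clock, the authors' deposited table called 3 higher and 0 lower (1 lower at an unadjusted p under 0.05). The activators npas2 (2.25 to 3.16 FPKM, 0.49), arntl1b, a Bmal gene whose current symbol is bmal1b (10.5 to 12 FPKM, 0.19), and rorca, a retinoid-related orphan receptor (21.3 to 24.6 FPKM, 0.22), were the 3. Among members not called, clockb had 0.12 (q = 0.360) and arntl1a 0.08 (q = 0.705) in the authors' deposited table. The list of repressors and outputs had 9 lower and 3 higher of 31 measured genes, and a median of -0.06, while the activators had a median of 0.12. The period gene per2 (-0.03, q = 0.908) and cry2a (0.12, q = 0.284), which had the highest level of this list at 130 FPKM in the control, did not pass the test of the authors' deposited table.

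Genes that repair light damage to DNA fell alongside. Zebrafish cells are known to switch on photolyase and excision repair genes in light, in part through D-box elements. The authors' deposited table had 5 of 18 members of this list lower and none higher, with 2 at an unadjusted p under 0.05 in the higher direction. The photolyase-family gene cry-dash went from 12.2 to 8.69 FPKM (-0.49), and cry5, a photolyase whose row spans the locus of foxred1, from 5.46 to 3.92 FPKM (q = 0.0454) in the authors' deposited table. The damage recognition gene ddb2 fell from 9.45 to 7.01 FPKM (-0.43; chromosome 18, 20248867 to 20260161), and zgc:66475, now named cpdp and coding for the photolyase of pyrimidine dimers, from 20.3 to 17 FPKM (-0.26). The remaining called member is tefa, which stands in the clock list too, as cry5 does. Outside the list, and chosen after their values were seen, polh, the polymerase that copies past such lesions, fell from 4.41 to 3.34 FPKM (-0.40 in the authors' deposited table), and rrm2b, a ribonucleotide reductase subunit for repair, from 30.7 to 26.4 FPKM (-0.22). The base excision gene neil1 (0.16, q = 0.713) and the glycosylase gene tdg.1 (-0.03, q = 0.915) were not called.

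**Figure D2:**
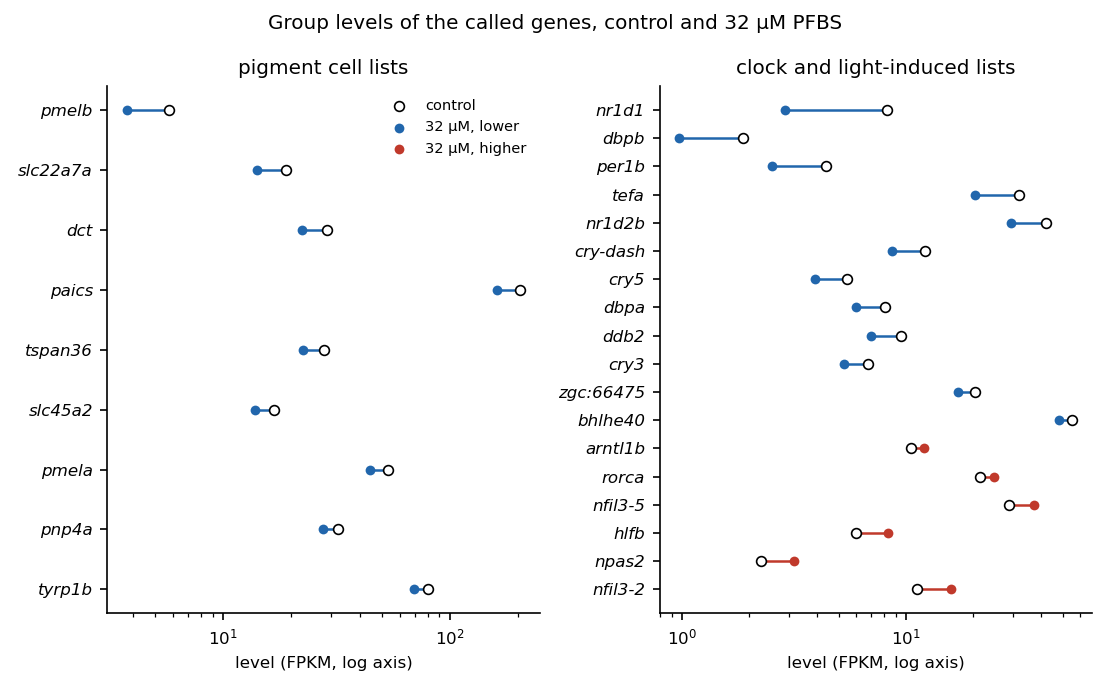
Open circles give the control level and filled circles the 32 µM level in FPKM on a log axis, for the called genes of the 3 pigment cell lists (left) and of the clock and light-induced lists (right). Blue lines join levels that fell and red lines levels that rose, with 1 value per group and therefore no error bars. All 9 pigment genes lie lower at 32 µM, while the clock panel holds 6 genes that rose below 12 that fell.

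Part of the genes of proteins that the liver secretes into the blood were lower, among them genes of clotting, complement and lipid transport. Over the lists of plasma proteins, coagulation and complement together, the authors' deposited table called 21 of 52 measured genes lower and 0 higher (2 higher at an unadjusted p under 0.05). Their summed level went from 14564 to 12746 FPKM. Most of that fall lay in apoa2 (5634 to 4837 FPKM) and apoa1a (2610 to 2180 FPKM). Of the 52 ratios 40 were negative and 12 positive. Complement, the lytic cascade of innate immunity, had the largest share, with 7 of 12 measured genes lower. The beta chain of a membrane attack component, c8b, fell from 17.8 to 13.8 FPKM (-0.36), and c9, whose product forms the pore, from 83.3 to 68.6 FPKM (-0.29; chromosome 5, 33982734 to 33993354) in the authors' deposited table. The central component genes c3a.6 and c3a.1 fell from 6.32 to 5.1 FPKM and from 61.4 to 52 FPKM (-0.30 and -0.24), and cfd and cfb of the alternative pathway fell by 0.32 and 0.23, per the same deposited table. The factor H-like gene cfhl4 fell by 0.18, and a row that pools cfh, cfhl1 and cfhl2 by 0.20. The lectin pathway protease gene masp2 (0.13, q = 0.658) and c6 (0.06, q = 0.864) had positive ratios without passing the test of the authors' deposited table.

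In coagulation the authors' deposited table called 4 of 17 measured genes lower and 0 higher: f7, the protease that starts the extrinsic pathway (10.8 to 8.28 FPKM, -0.37), f2, prothrombin (63.1 to 55.3 FPKM, -0.19), fgg, fibrinogen gamma (105 to 92.4 FPKM, -0.19), and plg, plasminogen (43.1 to 37.5 FPKM, -0.20), whose row spans the locus of slc22a2. The other fibrinogen chains fga (-0.15, q = 0.112) and fgb (-0.12, q = 0.241) missed the threshold of the authors' deposited table. Among other plasma proteins the apolipoprotein genes apoa2 (5634 to 4837 FPKM, -0.22), apoa1a (2610 to 2180 FPKM, -0.27) and apoc1l (709 to 622 FPKM, -0.19) had some of the highest levels in the table, and apom fell by 0.27. In the list of lipoproteins and fatty acid binding 4 of 26 measured genes fell and 2 rose. Its members apobb.1 (-0.19, q = 0.111), apoea (-0.10, q = 0.603) and apoeb (-0.09, q = 0.469) were not called. The apolipoprotein gene apoda.2 had 0.18 (q = 0.168). Transferrin (tfa) fell from 873 to 765 FPKM (-0.19), the protease inhibitor genes a2ml and itih2 by 0.32 and 0.20, the microglobulin precursor gene ambp by 0.23, angiotensinogen (agt) by 0.23 and the carboxylesterase gene ces3 from 42.2 to 28.4 FPKM (-0.57) in the authors' deposited table. Genes of the same kind that no list held were called in both directions, as seen after their values. Those that fell included the vitronectins vtna (34.3 to 29.9 FPKM, -0.21) and vtnb (44.3 to 38.9 FPKM, -0.20) and the antifreeze-type gene afp4 (526 to 455 FPKM, -0.22). A row pooling C-reactive protein genes, which encode plasma proteins of the acute phase, rose by 0.29 (30.7 to 37.5 FPKM). The rows that pool serpina1 with serpina1l (-0.18) and apoa4b.1 with apoa4b.2 (-0.23) fell in the authors' deposited table.

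The digestive tract moved in the opposite direction. In the exocrine pancreas 10 of 12 measured genes rose in the authors' deposited table, and all 12 ratios were positive. The largest were those of the astacin protease gene c6ast4 (21.1 to 33.6 FPKM, 0.68), the elastase gene ela3l (71.5 to 109 FPKM, 0.62) and amylase, amy2a (20.5 to 30.7 FPKM, 0.58). Chymotrypsin-like ctrl rose from 89.3 to 109 FPKM (0.29), trypsin (try) from 380 to 443 FPKM (0.22) and carboxypeptidase cpb1 from 64 to 73.5 FPKM (0.20) in the authors' deposited table. The pancreatic disulfide isomerase gene pdia2 rose by 0.19. Further protease genes outside the list rose, as seen after their values: zgc:92041, now cela1.6 (345 to 431 FPKM, 0.32), and zgc:112160, now ctrb.3 (76.6 to 99.7 FPKM, 0.38). The regulator of acinar cells ptf1a had 0.10 (q = 0.899) in the authors' deposited table.

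Genes of the absorptive intestine rose in part. Of 23 measured enterocyte genes 4 rose, 1 fell and 20 had a positive ratio in the authors' deposited table. The desaturase gene fads2 (9.99 to 14.5 FPKM, 0.54), the amino acid transporter gene slc6a19b (3.94 to 5.03 FPKM, 0.35), the fatty acid binding protein gene fabp2 (505 to 592 FPKM, 0.23) and villin, vil1 (73.5 to 83.9 FPKM, 0.20), rose. The retinol binding protein gene rbp2b fell from 96.3 to 81.6 FPKM (-0.23), while its paralogue rbp2a had 0.01 (q = 0.977) at 317 FPKM in the control. Other genes known from the brush border or gut lining rose without being in the list, chosen after their values were seen. They were the intestinal alkaline phosphatase gene alpi.2 (4.11 to 5.58 FPKM, 0.44), the diamine oxidase gene aoc1 (5.82 to 8.17 FPKM, 0.49), the neutral ceramidase gene asah2 (4.44 to 5.66 FPKM, 0.35), the plastin gene pls1 (6.92 to 8.4 FPKM, 0.28) and the ezrin gene ezra (9.78 to 11.5 FPKM, 0.24) in the authors' deposited table. The tetraspanin-like gene tm4sf4 (58.1 to 70 FPKM, 0.27) and plac8.1 (47.2 to 64.4 FPKM, 0.45) rose as well. The endocrine pancreas had none of 19 measured genes called, with 2 at an unadjusted p under 0.05 in the higher and 3 in the lower direction.

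**Figure D3:**
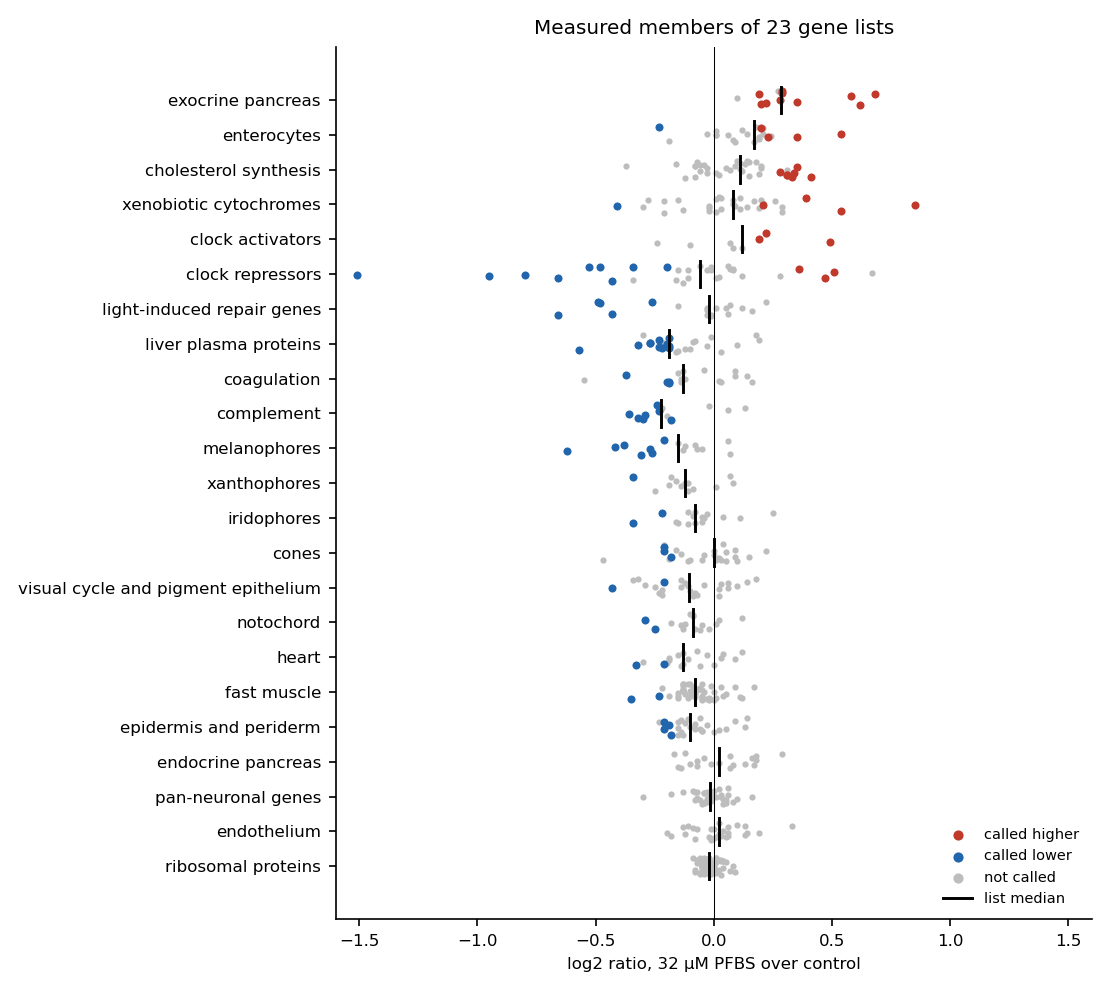
Each point is the log2 ratio of 1 measured gene at 32 µM over control in the authors' deposited table, for 23 of the lists. Red points were called higher, blue points called lower and grey points not called, and the black bar is the list median. The medians of pancreas and enterocytes lie to the right of 0, those of plasma proteins and melanophores to the left, and all ribosomal proteins within 0.09 of 0 on both sides.

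Several genes of cholesterol synthesis rose. In the list of cholesterol synthesis and uptake the authors' deposited table called 7 of 37 measured genes higher and 0 lower (2 lower at an unadjusted p under 0.05). They ran along the pathway from hmgcs1 (33.8 to 40.8 FPKM, 0.28) and hmgcra (12.1 to 15.5 FPKM, 0.35), which make mevalonate, through squalene epoxidase, sqlea (5.28 to 7.01 FPKM, 0.41), to the sterol enzymes cyp51 (0.34), msmo1 (0.31) and sc5d (0.33), with the lipoprotein receptor gene ldlra at 0.31. The transcription factor gene srebf2 had -0.04 (q = 0.875) and insig1 0.14 (q = 0.494) in the authors' deposited table. In the synthesis of polyunsaturated fatty acids 2 of 18 genes rose, the elongase gene elovl2 (7.52 to 10.4 FPKM, 0.47) and fads2, and 0 fell (3 lower at an unadjusted p under 0.05). Of the 18 ratios 9 were positive and 9 negative. In fatty acid oxidation hadhab of the mitochondrial trifunctional protein rose from 36.8 to 46.9 FPKM (0.35). Of carriers of fatty acids, both rows named fabp1b.1 rose (1218 to 1409 FPKM, 0.21, and 596 to 695 FPKM, 0.22). The acyl-CoA binding protein genes dbi (0.17) and acbd7 (0.22) rose while acbd4 fell from 3.05 to 2.01 FPKM (-0.60), all per the authors' deposited table. The lysophospholipase gene pnpla7a rose from 2.71 to 4.38 FPKM (0.69). No gene of fat synthesis and storage was called among 33, with 4 at an unadjusted p under 0.05 in the higher direction and 0 in the lower.

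Enzymes that handle foreign compounds rose in some families and fell in others. Of 32 measured xenobiotic cytochromes and their partners, the authors' deposited table called 4 higher and 1 lower. The family members cyp2k18 (2.97 to 5.35 FPKM, 0.85), cyp2n13 (6.96 to 9.13 FPKM, 0.39) and cyp3a65 (17.9 to 26 FPKM, 0.54) rose with cytochrome b5, cyb5a (65.3 to 76.1 FPKM, 0.21). The gene cyp2aa8 fell from 39.1 to 29.2 FPKM (-0.41). Its row spans a locus shared with uncalled rows of relatives, among them cyp2aa7 (-0.28, q = 0.735) and cyp2aa1 (-0.21, q = 0.777). The cyp2k18 row likewise spans the locus of cyp2k19 (0.29, q = 0.281). The target of the aryl hydrocarbon receptor cyp1a rose from 6.77 to 12 FPKM (0.82; chromosome 18, 4974675 to 4985563). A row named mpx spans exactly the same locus and had 0.89, while both other rows of that name, at another locus, had -0.07 (q = 0.924) and 0.04 (q = 0.981) in the authors' deposited table. The receptor gene ahr2 (0.14, q = 0.172) and the target tiparp (-0.06, q = 0.819) were not called. Of 55 measured genes of conjugation and export 3 rose and 4 fell, with a median of 0.02. The efflux pump abcc2 (14.5 to 18.3 FPKM, 0.33), the aldehyde dehydrogenase aldh3a2b (0.34) and the sulfotransferase sult6b1 (52.3 to 62.2 FPKM, 0.26) rose, as did the rows that pool the ugt1a genes (85 to 103 FPKM, 0.29), the ugt5a genes (3.61 to 6.96 FPKM, 0.95) and sult1st2 with sult1st3 (0.52) in the authors' deposited table. Also higher was ugdh, which makes the glucuronic acid donor (27.1 to 31.3 FPKM, 0.21). The carboxylesterase genes ces3 and ces2 (147 to 117 FPKM, -0.33) and the methyltransferase domain gene comtd1 (24.1 to 19.3 FPKM, -0.33) fell, as did slc22a7a. A row named sult3st4 is listed at 0 in the control and at 191 FPKM at 32 µM and was not called (q = 0.356). The regulator gene nfe2l2a, which encodes Nrf2, rose by 0.23 on a locus that it shares with 4 other rows. Of 56 measured genes in the list of Nrf2 and glutathione 2 rose, nfe2l2a and abcc2, and 0 fell. In that list 24 ratios were positive and 29 negative, with a median of -0.01.

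Smaller branches of metabolism held 1 or 2 called genes each. The lists gave 2 of 27 for one-carbon metabolism and 2 of 72 for amino acid breakdown, all lower, 2 of 41 for glycolysis, both lower, 2 of 29 for gluconeogenesis and glycogen, 1 in each direction, and 1 of 33 for the citrate cycle, higher. The methyl group pathway was lower at bhmt, betaine-homocysteine methyltransferase (1031 to 891 FPKM, -0.21), and mat2aa, which makes S-adenosylmethionine (78.2 to 66.3 FPKM, -0.24), in the authors' deposited table. The gene bhmt was counted in both the one-carbon and the amino acid breakdown list. The threonine dehydrogenase gene tdh fell from 71.5 to 57.3 FPKM (-0.32), and gatm, the first enzyme of creatine synthesis, from 313 to 276 FPKM (-0.18). The tyrosine aminotransferase gene tat fell from 3.41 to 2.41 FPKM (-0.50) and the D-amino acid oxidase gene dao.1 from 2.13 to 0.979 FPKM (-1.12, or -0.66 with a pseudocount of 1; chromosome 5, 21971207 to 21978699) in the authors' deposited table. Glycolysis was lower at pkmb (298 to 260 FPKM, -0.20) and gpib (57.3 to 50.2 FPKM, -0.19) and in 31 of 41 ratios. The share called lower was 4.88%, beside 5.93% of all rows called in either direction at 50 to 100 FPKM and 4.78% at 100 to 300 FPKM. How far the glycolysis ratios go with level alone was not tested. In gluconeogenesis the deposited table had pck1 higher (34.3 to 39.1 FPKM, 0.19) and fbp1b lower (96.3 to 79.9 FPKM, -0.27). The 1 called gene of the citrate cycle list, the iron-responsive aconitase gene aco1, rose from 20.4 to 26.4 FPKM (0.37). Of the 33 ratios of that list 28 were negative and 5 positive, with a median of -0.06. At an unadjusted p under 0.05 it held 1 higher and 6 lower genes. Rows of ammonia channels were higher: rhcga of skin ionocytes went from 1.66 to 2.46 FPKM (0.58, or 0.38 with a pseudocount of 1), and a row pooling rhcg2a and rhcgl1 from 5.43 to 8 FPKM (0.56) in the authors' deposited table. The gene rhcga was the 1 called member of 21 measured ionocyte genes, of which 6 had a positive and 14 a negative ratio (median -0.03). Selenoprotein genes, grouped after their values were seen, differed in direction, since sepp1b (30.5 to 24.6 FPKM, -0.31) and selj (29.9 to 25.1 FPKM, -0.25) fell and fep15 (50.6 to 61.4 FPKM, 0.28) rose. So did genes of sialic acid, with the synthase gene nansb (-0.32) and the lysosomal exporter gene slc17a5 (-0.29) lower and the esterase gene siae (0.35) higher in the authors' deposited table.

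In the eye, the authors' deposited table called 7 of 100 measured retinal genes lower and 0 higher, with 6 at an unadjusted p under 0.05 in the higher direction. Among the 7 is tyrp1b of the pigment epithelium list, which was counted with the melanophore genes above as well. The retinal carrier gene rlbp1b fell from 11.1 to 8.28 FPKM (-0.43; chromosome 25, 19596006 to 19608242). The cone arrestin gene arr3a (254 to 221 FPKM), the cone phosphodiesterase gene pde6c (61.8 to 53.4 FPKM) and the arrestin gene saga (19.2 to 16.6 FPKM) had -0.21 each, and zgc:73075, now rcvrn3, had -0.18 (105 to 92.4 FPKM). Cone opsins had ratios near 0, with opn1sw1 at 0.04 (q = 0.868) from a control level of 1184 FPKM and opn1mw1 at 0.02 (q = 0.960) in the authors' deposited table. Of 23 inner retina genes 1 fell, the bipolar cell factor vsx1 (53.1 to 46.2 FPKM, -0.20), while the retinal factors crx (-0.12, q = 0.292) and atoh7 (-0.08, q = 0.944) did not pass the test. In no list, and named because they were called, were the retinal factors rx1 (-0.24), bhlhe23 (-0.25) and six7 (-0.26). The corneal proteoglycan gene kera fell from 24.8 to 19.2 FPKM (-0.37). None of 43 lens genes was called, with 6 at an unadjusted p under 0.05, all lower. Of the hair cell and inner ear list 1 of 15 fell, pvalb9 (214 to 181 FPKM, -0.23 in the authors' deposited table).

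The brain gave no called gene in 161 measured members of 6 lists for neurons, transmitters, receptors, myelin, progenitors and hypothalamic peptides. At an unadjusted p under 0.05 these held 10 higher and 6 lower genes, and their summed level was 6587 FPKM in the control and 6512 FPKM at 32 µM in the authors' deposited table. Outside these lists a few nervous system genes were called, as seen after their values. The axonal adhesion gene cntn2 rose from 3.71 to 4.89 FPKM (0.40) and ndrg4 from 42.5 to 48.8 FPKM (0.20), while the synaptic vesicle gene sv2ba fell from 19.4 to 16.8 FPKM (-0.21) and the glutamate transporter gene slc1a2a of glia from 7.57 to 6.19 FPKM (-0.29) in the authors' deposited table.

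Muscle, skeleton and skin were slightly lower over many genes, with few of them called. Over the fast muscle, slow muscle and heart lists the authors' deposited table called 5 of 89 genes lower and 0 higher, and 71 ratios were negative with a median of -0.08. At an unadjusted p under 0.05 there were 25 lower and 2 higher. Many of these genes are highly expressed. Gene names at 100 FPKM or more had a median of -0.04, and 5.01% of rows at 300 FPKM and more were called. How far the muscle, skeleton and skin ratios go with level alone was not tested. Fast muscle fell at the parvalbumin gene pvalb3 (35.5 to 27.7 FPKM, -0.35) and the actin gene acta1a (212 to 181 FPKM, -0.23). Slow muscle fell at the actin gene zgc:86709, now actc2 (60.5 to 53.1 FPKM, -0.19). In the heart list the light chain gene cmlc1 (20.5 to 16.3 FPKM, -0.33) and myoglobin, mb (39.7 to 34.3 FPKM, -0.21), fell in the authors' deposited table, while fabp3 had 0.00 (q = 0.997) at 288 FPKM. A row that pools the muscle chaperone genes hsp90aa1.1 and hsp90aa1.2 fell from 86.2 to 68.6 FPKM (-0.33). The transcription factor genes dmrt2a (-0.48) and vgll2b (-0.34), known from somites and muscle, and irx4a (-0.33), known from the ventricle, fell outside the lists.

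In the notochord 2 of 16 genes fell in the authors' deposited table, cmn, calymmin, a protein of its sheath (52 to 43.7 FPKM, -0.25), and the collagen gene col8a1a (25.5 to 20.8 FPKM, -0.29). Of 21 measured cartilage genes 1 fell, the collagen gene col9a1b (186 to 151 FPKM, -0.30), while col2a1a had -0.14 (q = 0.503) at 904 FPKM. Of 16 measured fin fold genes 1 fell, the actinotrichia gene and1 (294 to 256 FPKM, -0.20). The posterior hox gene hoxc13a fell from 6.15 to 4.29 FPKM (-0.52) in the authors' deposited table. Of 38 measured hox genes 33 had a negative ratio, with a median of -0.075 beside -0.02 over all gene names. Of 15 measured bone genes 1 fell and 1 rose, while 11 ratios were negative and 4 positive, with a median of -0.06. The osteoclast phosphatase gene acp5a fell from 1.67 to 0.865 FPKM (-0.95, or -0.52 with a pseudocount of 1). The matrix metalloproteinase gene mmp9, also listed for neutrophils, rose. Skin fell in 4 of 27 measured genes of the authors' deposited table, with krt8 (331 to 288 FPKM, -0.21), anxa1a (165 to 146 FPKM, -0.19), anxa2a (72 to 62.7 FPKM, -0.21) and lgals3l (78.2 to 69.1 FPKM, -0.18). The keratin gene krt4, at 4182 FPKM in the control, had -0.15 (q = 0.603). The junction gene cldn1 fell from 71 to 58.5 FPKM (-0.28). A row that pools the hatching enzyme genes he1a and he1b went from 27.7 to 11.8 FPKM (-1.23, q = 0.0344) in the authors' deposited table. It spans the same locus as the row of aox5, which had 0.01 (q = 0.995). Of 4 measured hatching gland genes on rows of their own, none was called, with 2 positive and 2 negative ratios. Their summed level was 277 FPKM in the control and 270 FPKM at 32 µM.

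Immune and stress genes changed singly. The gelatinase gene mmp9, which neutrophils and remodelling tissue make, rose from 4.32 to 9.71 FPKM (1.17; chromosome 8, 25134467 to 25148890) in the authors' deposited table, while the neutrophil and macrophage gene lyz had -0.20 (q = 0.0912) and lect2l -0.29 (q = 0.528). Of 15 measured neutrophil genes 2 were called, both higher, mmp9 and the mpx row on the cyp1a locus. Of 18 measured macrophage and microglia genes 1 was called, the receptor gene havcr1, which fell from 3.84 to 2.51 FPKM (-0.61, q = 0.0492). The cytokine signalling inhibitor socs1a fell from 5.62 to 3.89 FPKM (-0.53). The NF-kappaB subunit gene rel rose from 5.39 to 6.92 FPKM (0.36 in the authors' deposited table). Among blood cells blvrb, biliverdin reductase, fell from 22 to 18.4 FPKM (-0.26), while the globin gene hbae3 had -0.11 (q = 0.292). Of 44 measured heat shock genes 1 fell, the factor hsf2 (14.2 to 9.85 FPKM, -0.53), and 1 rose, hspb6 (9.19 to 11.9 FPKM, 0.37). The hspb6 row shares its locus with another gene's row. Of 62 measured genes of endoplasmic reticulum stress 1 fell, herpud1 (-0.20), and 1 rose, pdia2 (0.19), which is in the pancreas list too. None of 33 genes of p53 and apoptosis was called, nor did any reach an unadjusted p under 0.05 in either direction.

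Genes switched on within minutes of a stimulus split into both directions, with 4 higher and 3 lower of 45 in the authors' deposited table. The AP-1 family genes jdp2b (9.06 to 13.7 FPKM, 0.60) and jund (2.23 to 2.89 FPKM, 0.37), the neuronal activity gene npas4a (11.6 to 14.3 FPKM, 0.31) and the kinase gene sik1 (16.2 to 18.5 FPKM, 0.19) rose. The genes per1b, gadd45ba (49.9 to 41.1 FPKM, -0.28) and dusp1 (46.5 to 41.1 FPKM, -0.18) fell, while fosab had 0.11 (q = 0.418) and egr1 -0.11 (q = 0.486) in the authors' deposited table. Of 27 glucocorticoid targets 2 rose and 4 fell, with a median of 0.02: fkbp5, a co-chaperone of the receptor (26.5 to 35.8 FPKM, 0.42), and pck1 were higher, and socs1a, tat, cry3 and dusp1 lower, per the authors' deposited table. The target klf9 had 0.34 (q = 0.221). In the cell cycle 2 of 50 measured DNA replication genes fell, mcm4 (36.8 to 32 FPKM, -0.20) and mcm6 (30.7 to 26.9 FPKM, -0.19) of the replication helicase. Of the mitosis list cdca7a fell (-0.22), while 31 of 48 ratios were positive, 8 of them at an unadjusted p under 0.05.

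Lists without any called gene included the 82 ribosomal proteins. Their ratios ran from -0.09 to 0.09 in the authors' deposited table, 54 negative and 22 positive, and none reached an unadjusted p under 0.05. The 87 genes of the proteasome and ubiquitin had none called (6 higher and 1 lower at that unadjusted p), the 69 of splicing none (2 and 3), the 60 voltage-gated channels none (3 and 4), the 29 of endothelium none (1 and 1), the 32 of insulin and IGF signalling none (1 and 0) and the 9 of the thyroid axis none (1 and 0). No oestrogen target of the list was measured.

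Of the 273 called gene names, 117 stood in no list. Among them the largest increases were those of coro7, a Golgi coronin (2.3 to 4.89 FPKM, 1.09), zgc:92590 (1.95 to 3.92 FPKM, 1.01), the actin-related gene actr2b (2.89 to 4.47 FPKM, 0.62), si:dkey-7c18.24 (7.36 to 11 FPKM, 0.58) and the transcription factor genes rfx3, known from ciliated cells (2.25 to 3.36 FPKM, 0.58), and tfcp2l1 (2.25 to 3.29 FPKM, 0.55) in the authors' deposited table. The elongation factor gene eef1a1l2, of the translation list, rose from 26.5 to 43.7 FPKM (0.72). The largest decrease outside the lists after dao.1 was that of znf395b, from 11.1 to 7.21 FPKM (-0.63). The actin-binding protein gene pfn1 fell at a high level, from 949 to 838 FPKM (-0.18 in the authors' deposited table). The histone variant gene h2afy2, now macroh2a2, was named on a pair of rows that moved apart, from 14.6 to 10.1 FPKM (-0.54) and from 22.5 to 26.7 FPKM (0.25), and uqcrfs1 of the respiratory chain likewise had -0.23 and 0.49. Another row of coro7 had 0.43 (q = 0.0955), and of plod3, whose called row rose by 0.45, the other row had -0.16 (q = 0.467).

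Rows named for microRNA loci, which hold polyadenylated transcripts over the locus and not the mature microRNA, gave the largest called increases among rows with a name. The row of mir135b rose from 1.85 to 21.7 FPKM (3.56; chromosome 8, 26858495 to 26859325) and a row pooling mir133b and mir206-1 from 8.17 to 58.5 FPKM (2.84), while that of mir133c fell from 9.65 to 3.53 FPKM (-1.45; chromosome 17, 5724944 to 5726245) in the authors' deposited table. These were 2 of 39 single-name microRNA rows and 1 of 4 pooled ones. Rows without any name made up 14489 of the table and held 128 higher and 69 lower calls. Their called members had a median level of 5.26 FPKM, against 22 FPKM for called rows with 1 name. A pair of neighbouring unnamed rows on chromosome 10, 34585832 to 34587024 and 34587083 to 34588219, went from 2 to 0.707 FPKM and from 1.85 to 0.712 FPKM, and another pair on chromosome 4, 58245232 to 58245453 and 58246065 to 58247514, rose from 21.1 to 49.2 FPKM and from 8.75 to 20.5 FPKM in the authors' deposited table.

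The 16 µM group was set against the same control samples, so its ratios are given beside those at 32 µM without any test of likeness, and each table was normalised separately. Of 276 called rows with 1 name, 274 were found at 16 µM, where the authors' deposited table called 25 of them, beside a background of 0.260% of all its rows. Clock ratios at 16 µM were -1.34 for nr1d1, -0.80 for dbpb and -0.64 for per1b (q = 0.0219 each) in the authors' deposited table. Some other clock and light-induced genes called at 32 µM were not called at 16 µM, among them hlfb (0.15, q = 0.998) and cry-dash (-0.29, q = 0.253). At 16 µM pmelb had -0.20 and dct -0.17 (both q = 0.998). Between the doses neither was called, with -0.42 (q = 0.115) for pmelb and -0.21 (q = 0.563) for dct. The hatching enzyme row had -2.41 (q = 0.0219) at 16 µM. The deposited table that compares the doses directly called 0.329% of its rows. It called 30 of the 273 rows found there, 21 higher and 9 lower at 32 than at 16 µM. That table holds the same 32 µM samples by which these rows were chosen, as the 16 µM table holds the same control samples. Shares above these backgrounds are thus set in part by the choice of rows and were not tested.

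Of the genes named next, sik1 alone was called at 16 µM in the direction opposite to that at 32 µM. For fkbp5 the authors' deposited tables gave -0.24 (q = 0.375) at 16 µM, 0.42 at 32 µM and 0.66 (q = 0.0194) between the doses. The kinase gene sik1 was called in all 3 deposited tables, at -0.38 (q = 0.0219), 0.19 and 0.57 (q = 0.0194), and mmp9 had 0.07 (q = 0.998), 1.17 and 1.1 (q = 0.0194). At 16 µM notochord cmn had 0.04, cartilage col9a1b 0.02 and retinal rlbp1b 0.12 (q = 0.998 each), and between the doses they had -0.29, -0.32 and -0.54 (q = 0.0194 each) in the authors' deposited tables. Of the 9 rows lower at 32 than at 16 µM, that of cyp1a was the 1 row higher at 32 µM than in the control, at 1.49 (q = 0.0219) for 16 µM and -0.67 (q = 0.0194) between the doses. The genes tefa and cyp1a were, with sik1, the 3 called in all 3 deposited tables.

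**Figure D4:**
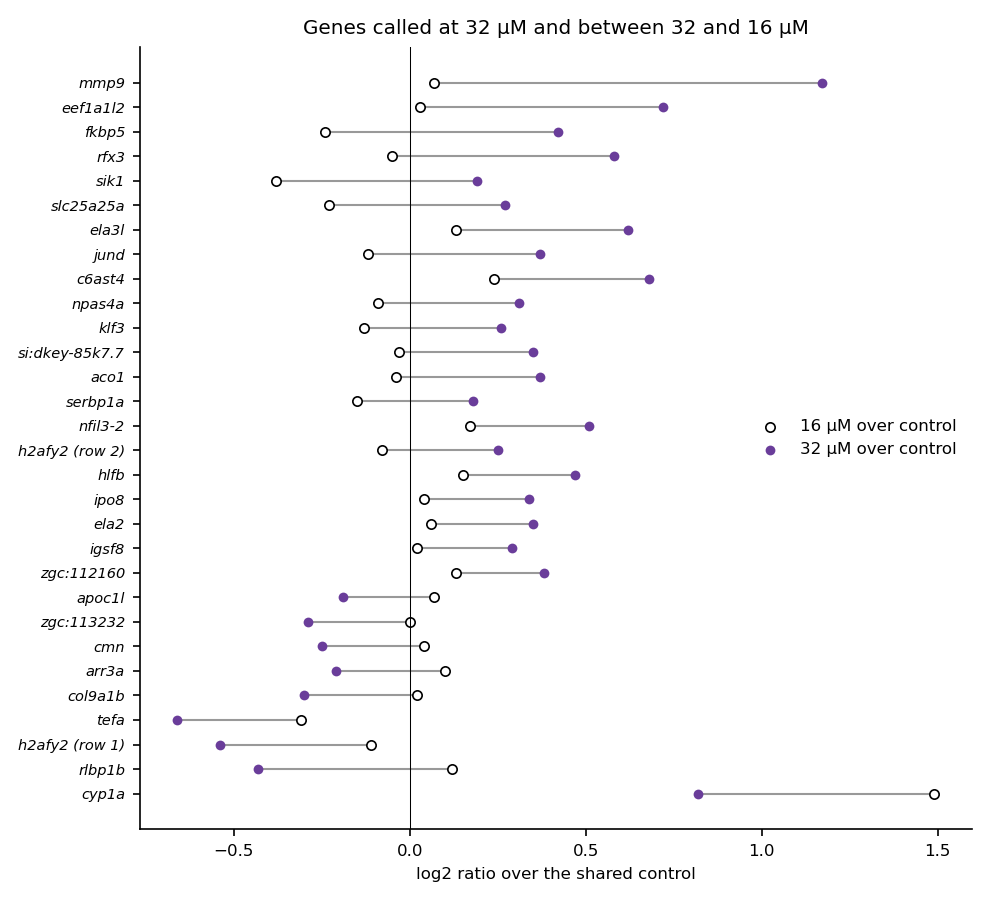
For the 30 rows called both at 32 µM against control and between the doses, open circles give the log2 ratio of 16 µM and filled circles that of 32 µM over the shared control, from separate deposited tables. Rows are ordered by the ratio between the doses, from cyp1a at -0.67 to mmp9 at 1.1, and 21 of the 30 have the filled circle to the right.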

How the data were processed

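Samples were grouped by their exposure labels, and the members and gene lists were chosen with earlier results of these data known. Per the file headers the authors deposited, for each pair of groups, 1 log2 FPKM value per group, their log2 ratio, a q-value and a call. The deposited ratio equals 32 µM minus control within 0.011 on every row, a log2 value of -10 stands for 0 FPKM, and a row is called exactly where its q-value is below 0.05, all checked. Cufflinks and the build danRer7 are named per the submitters' processing notes, while the aligner, versions, annotation and test are not stated in any source at hand. Tables were assembled and normalised separately. As these tables hold no values of single samples, the test is the authors' deposited q-value and no model was fitted.

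FPKM was computed as 2 to the power of the log2 value, and unadjusted p-values were derived from q by inverting the Benjamini-Hochberg adjustment (upper bounds where tied; checked on simulated data) with Python 3.11.15, pandas 2.3.3 and numpy 2.4.6. Lists used 1 row per gene name, that of the highest mean level. Of 11685 names, 10369 were current RefSeq symbols of GRCz12tu and 1202 matched by synonym. Values are given for the 20 largest increases and decreases at 1 FPKM or more, the 10 called genes of highest level, up to 12 called and 3 uncalled members per list, and other called genes in no list, chosen after their values were seen. Some uncalled genes beyond those 3 were added for their known role, with their values seen. In all, 35 called rows overlap another row of the table. The result of 1 called gene is not reported here.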

Additional observations from a re-analysis of the deposited data

How the results depend on the processing

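No paired analysis was possible because the tables hold 1 value per group, and leaving out a replicate was not run for the same reason. With a q-value under 0.01 the higher and lower rows numbered 159 and 134, and with a log2 ratio of at least 0.5 in size 81 and 37. Higher rows numbered 169 at 5 FPKM or more and 120 among rows naming 1 gene, where lower rows numbered 204 and 156, so that lower calls were then the majority. With a q-value under 0.10 there were 348 and 314, and without rows that overlap another row 240 and 217. List counts depended on the threshold too. Under 0.01 the members called lower moved by over 1.5 times or to 0 in 29 of 107 lists, and those called higher in 11. In coagulation f2 (q = 0.0476), fgg (q = 0.0125) and plg (q = 0.0215) no longer passed. Neither did cmlc1 (q = 0.0366) and mb (q = 0.0454) of the heart, nor mcm4 (q = 0.0158) and mcm6 (q = 0.0188). No ratio of a called gene changed sign with a pseudocount of 1 or 0.1, and 6 of 276 moved by over 1.5 times with a pseudocount of 1: dao.1 (-0.66), dbpb (-0.55), acp5a (-0.52), rhcga (0.38), si:dkey-40c11.1 (0.29) and ankk1 (0.27). No list median moved by 0.05 or more with either pseudocount or with centring. With members at 5 FPKM or more 9 of 106 list medians moved by that much, and the melanophore median was -0.26. Depth per sample is unknown, so which changes were too small to be called cannot be stated.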
